A study of Mus musculus with 16 samples.

Results

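The epidermal growth factor (EGF) family was followed here through the ligand genes Hbegf, Areg, Ereg, Tgfa, Btc and Nrg1 and the receptor genes Egfr, Erbb2 and Erbb3, taken as every probe set annotated with one of these symbols alone. Of the 9 genes, 8 had such a probe set, 19 among the 45101 on the array, and Areg was not analysed here. The measurements were Affymetrix array signals from cultured mouse aortic smooth muscle cells on a mixed C57BL/6 and 129SvJ background. Wild-type cells and cells with a knockout of Hey2, a transcriptional repressor that acts downstream of Notch, were compared. The cells came from aortas stripped of their adventitia, minced and digested, and were starved for 48 h in 0.4% serum before treatment. Human PDGF-BB, a mitogen for smooth muscle cells, was then added to 5 ng/ml, and cells were harvested after 0, 15, 30, 60, 120, 180, 240 and 480 min, with 1 array for each genotype and time and 16 arrays in all. The labels do not give the number of isolates or animals behind a genotype, and an untreated time course was not used. The p-values thus rest on differences among time points, and the effects of PDGF-BB and of time in culture cannot be told apart. By RefSeq, Ereg and Btc lie on chromosome 5, Tgfa on chromosome 6, Nrg1 on chromosome 8, Erbb3 on chromosome 10, Egfr and Erbb2 on chromosome 11 and Hbegf on chromosome 18 of the mouse build GRCm38.p6.

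EGF-family ligands are made as membrane-anchored precursors, and metalloproteases of the ADAM family release the soluble factor. The released ligands bind the receptor tyrosine kinases of the ErbB family, which signal as pairs: Egfr is the receptor of most of these ligands, Erbb3 binds neuregulins and has little kinase activity of its own, and Erbb2 has no known soluble ligand and serves as a partner. In cultured smooth muscle cells the protein made from Hbegf, heparin-binding EGF-like growth factor, is known as a mitogen, and the gene is known to respond quickly to growth factors.

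Several properties of the arrays touch the results. The knockout array most like the library labelled wild type 60 min was that of 480 min (r = 0.57 over 14299 genes centred within genotype, against -0.33 for the 60 min pair). For the library labelled wild type 480 min it was that of 60 min (r = 0.46, against -0.38 for the 480 min pair). These correlations run across genes, which are not independent replicates. The main results on the members are therefore given for all 16 arrays and for the 12 arrays without 60 and 480 min. Hey2 itself had a normalized signal of 14.0 to 113 in wild type and 23.3 to 63.3 in knockout. Its log2 difference was -0.19 ± 0.32 (SE; limma adjusted p = 0.696), an average over differences of opposite sign. At 0, 15 and 30 min its signals were 101, 102 and 113 in wild type and 34.3, 63.3 and 42.2 in knockout. From 60 to 240 min they were 14.0 to 19.3 and 23.3 to 41.0, and at 480 min 75.2 and 31.6. Whether its probe set lies in the deleted part is not known here, so these signals do not check the labels. Of 6 smooth muscle markers 5 were lower in knockout, with a summed signal of 6513 to 9549 against 12336 to 16349 in wild type. Of 11 mesothelial and epithelial markers 9 were higher and 1 lower in knockout, with a sum of 14599 to 16892 against 1512 to 2815. The endothelial markers Pecam1, Cdh5 and Vwf stayed at or under a signal of 16 on every array, whereas Kdr reached 65.2 and Tek 32.0, and neither was called between genotypes. Of the other lists, leukocyte markers summed to 418 to 558 in wild type and 445 to 739 in knockout, fibroblast markers to 528 to 3476 and 557 to 792, and the Schwann markers Sox10 and S100b to 62.3 to 142 and 57.1 to 74.7. Of the 5 fibroblast markers 3 were called higher in knockout and 1 lower. Median signals in wild type and knockout were 13.9 and 170 for Thy1, 3.09 and 54.0 for Dpt, 15.6 and 134 for Serpinf1, 129 and 117 for Pdgfra, and 1873 and 192 for Lum. Of the leukocyte markers 1 was called higher, and of the Schwann markers 1 lower. Most of the leukocyte sum came from Cd14, with median signals of 433 in wild type and 587 in knockout. The medians were 8.46 and 9.73 for Ptprc, 19.2 and 20.4 for Cd68, 8.22 and 7.39 for Itgam, and 27.1 and 21.2 for Adgre1.

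Hbegf rose strongly after PDGF-BB in both genotypes. All signals below are quantile-normalized array signals of a gene's brightest probe set, in the order 0, 15, 30, 60, 120, 180, 240 and 480 min unless other times are named. In wild type, Hbegf had signals of 462, 507, 636, 3722, 5188, 4914, 4222 and 3204. In knockout its signals were 922, 927, 1815, 3883, 4668, 3658, 4274 and 2359. Signals at 0 to 30 min were the lowest of each series and all those from 60 min on were higher, so that early and later arrays did not overlap within either genotype. Averaged over both genotypes, 120 to 240 min exceeded 0 min by 2.76 ± 0.34 (SE) on the log2(signal + 4.856) scale, a 6.79-fold rise (limma adjusted p = 0.00134 with 16 arrays and 4.19e-05 with 12). The difference of 15 and 30 min from 0 min was 0.39 ± 0.36 and was not called (adjusted p = 0.9999). In bulk RNA, a change in the share of cells that express a gene and a change in RNA per cell cannot be told apart.

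**Figure D1:**
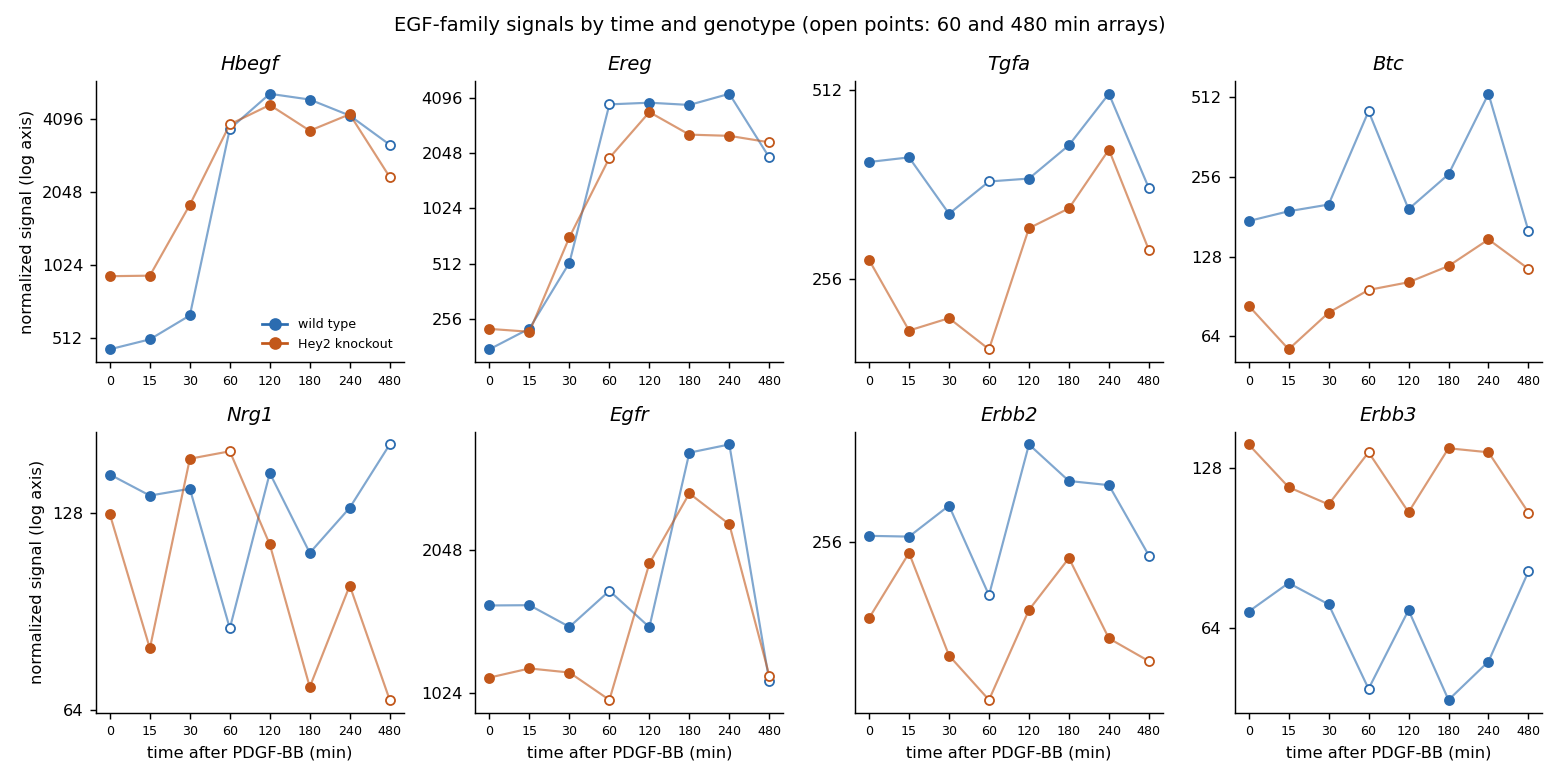
Quantile-normalized signal on a log axis against time after PDGF-BB in min, 1 panel for each of the 8 measured genes, with 1 point per array, wild type in blue, knockout in orange and the 60 and 480 min arrays as open points. Hbegf and Ereg are at their lowest from 0 to 30 min in both genotypes, and the genotypes do not overlap for Btc and Erbb3.

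Ereg encodes epiregulin, a ligand of Egfr and Erbb4, and its increase was larger still. Wild-type arrays gave 176, 228, 519, 3760, 3840, 3734, 4291 and 1935. Knockout arrays gave 227, 219, 714, 1926, 3414, 2576, 2537 and 2339. Each genotype again had its lowest signals from 0 to 30 min, with 30 min already above 0 and 15 min. At 120 to 240 min Ereg was 4.03 ± 0.26 (SE) above 0 min, a 16.3-fold rise (limma adjusted p = 5.21e-05 with 16 arrays and 2.15e-07 with 12). The earlier difference, 0.87 ± 0.28 at 15 and 30 min, had an adjusted p of 0.9999 with 16 arrays and 0.387 with 12. No member was called in that early window, where limma called 2 of all genes with 16 arrays and 28 with 12 (276 and 475 at an unadjusted p under 0.05). That is 0.00699% higher and 0.00699% lower of all genes with 16 arrays, and 0.187% and 0.0144% with 12. Of the members, Ereg alone was under 0.05 there before adjustment.

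The remaining ligands moved less. Tgfa encodes transforming growth factor alpha, a ligand of Egfr, and its log2 difference between 120 to 240 min and 0 min was 0.23 ± 0.17 (limma adjusted p = 0.387). Btc encodes betacellulin, a ligand of Egfr and Erbb4. Its difference of 0.64 was not called with 16 arrays (SE 0.29, adjusted p = 0.167) and was called with 12 (SE 0.19, adjusted p = 0.0190). Nrg1 encodes neuregulin 1, a ligand of Erbb3 and Erbb4, and differed by -0.31 ± 0.32 (adjusted p = 0.552).

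Among the receptors only Egfr passed the test of the response. The wild-type series read 1567, 1569, 1413, 1683, 1411, 3286, 3419 and 1085. The knockout series read 1105, 1155, 1133, 992, 1921, 2697, 2322 and 1116. Both genotypes were highest at 180 and 240 min, and at 120 min only the knockout array stood above its own earlier ones. The rise at 120 to 240 min was 0.86 ± 0.19 on the log2 scale, or 1.82-fold (limma adjusted p = 0.0215 with 16 arrays and 0.00132 with 12). The call was lost without the 180 min arrays (0.71, adjusted p = 0.0905) and without the 240 min arrays (0.75, adjusted p = 0.0702), and under the deposited scaling (0.87, adjusted p = 0.528). In all, 4 of 18 alternative settings lost the call, and the estimates ran from 0.51 to 1.14. Erbb2 differed by 0.19 ± 0.16 (adjusted p = 0.461) and Erbb3 by -0.21 ± 0.25 (adjusted p = 0.603).

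In total 3 of 8 members, Hbegf, Ereg and Egfr, rose at 120 to 240 min and 0 fell, where 5.15% of all genes were called higher and 5.72% lower. With the 12 arrays 4 rose and 0 fell, against 14.1% and 20.9% of all genes. The median difference of the members was 0.43, against -0.08 over all genes tested. The 3 members were also called in the F test over the time points, with limma adjusted p of 0.00754 for Hbegf, 3.72e-04 for Ereg and 0.0257 for Egfr, where 2.99% of all genes were called. That of Egfr was lost without 15, 30, 180 or 240 min (0.0595 to 0.157), and in 7 of 18 alternative settings in all (up to 0.244). With the 12 arrays 5 of 8 members were called in that test, Tgfa (0.0355) and Btc (0.00477) as well as these, where 35.8% of all genes were. Values that moved with time beside these were the Actb 3' to 5' signal ratios, which depend on RNA quality. They were 2.75 in wild type and 2.89 in knockout at 0 min, and 1.53 to 1.84 and 1.54 to 2.44 at 120 to 240 min. Their part in the results was not tested.

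Each genotype's own response was measured as the mean of 120, 180 and 240 min minus the mean of 0, 15 and 30 min, with 3 arrays per genotype and stage. In wild type Hbegf rose by 3.15 ± 0.21 (SE; limma adjusted p = 2.33e-07), Ereg by 3.82 ± 0.41 (1.08e-05) and Egfr by 0.73 ± 0.25 (0.0317). These 3 of 8 members compare with 15.7% of all genes called higher, and 0 fell, where 22.7% of genes were called lower. In knockout Hbegf rose by 1.85 ± 0.21 (5.93e-05), Ereg by 3.08 ± 0.41 (1.75e-04), Egfr by 1.02 ± 0.25 (0.0112) and Tgfa by 0.56 ± 0.16 (0.0250). These 4 of 8 compare with 9% of all genes, and 0 fell, against 11%. In the knockout fit over all probe sets, 1424932_at of Egfr was also called (1.04, limma adjusted p = 0.00442). Not called were 1451530_at (0.46, 0.174), 1460420_a_at (-0.08, 0.822), 1432647_at (0.18, 0.795) and 1454313_at (-0.07, 0.922) of Egfr. Nor was 1450421_at of Tgfa (0.28, 0.637).

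The Hbegf calls did not depend on any single time point, whereas the smaller ones did. Egfr in wild type was no longer called without 0, 15, 30, 180 or 240 min (adjusted p 0.0831 to 0.156), and in knockout without 0, 15 or 180 min (0.0507 to 0.0579). Tgfa in knockout was no longer called without 15, 30, 180 or 240 min (0.0699 to 0.122). Of 17 alternative settings, 9 lost the Egfr call in wild type, 6 that in knockout and 8 the Tgfa call in knockout. Btc differed by 0.66 in wild type and 0.72 in knockout, not called at adjusted p of 0.0850 and 0.0942, and was called in both without the 120 min arrays (0.97 at 0.00764 and 0.83 at 0.0273). With 60 min counted as early and 480 min as late, Hbegf in wild type was called at 2.31 (adjusted p = 0.0477). In that fit Ereg in wild type (2.62, 0.0805), Hbegf in knockout (1.21, 0.199) and Ereg in knockout (2.38, 0.106) were not. Egfr in wild type (0.39, 0.515), Egfr in knockout (0.80, 0.151) and Tgfa in knockout (0.55, 0.0776) were not called in it either. It thus called 1 member in wild type and 0 in knockout. Over all genes it called 1.22% higher and 0.552% lower in wild type, and 0.35% and 0.175% in knockout. At 60 min, counted as early there, Hbegf and Ereg already stood above their 0 to 30 min signals in both genotypes. For these genes that fit thus does not separate signals before and after the rise.

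**Figure D2:**
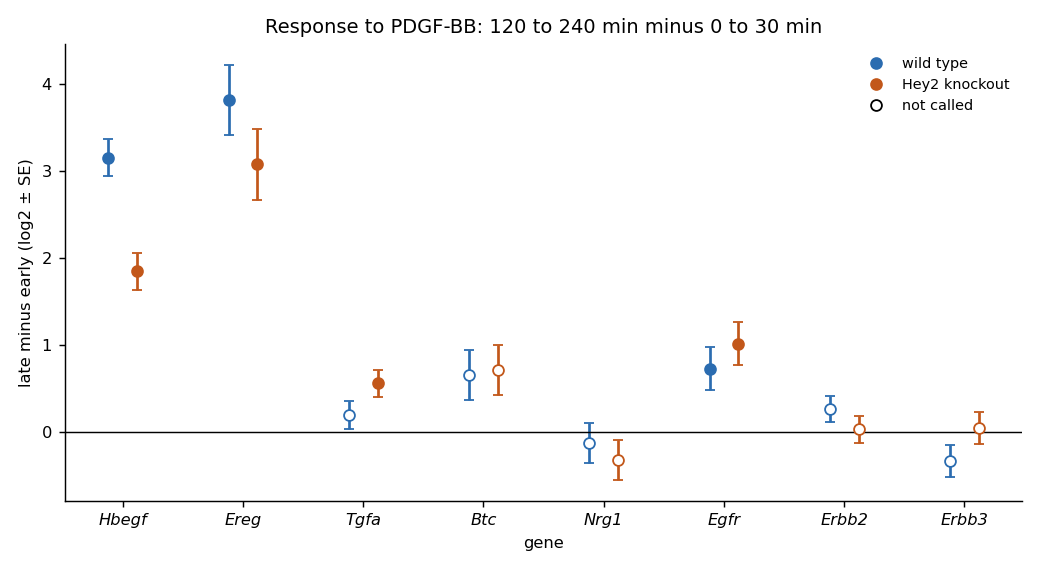
Mean of 120 to 240 min minus mean of 0 to 30 min on the log2(signal + 4.856) scale, by gene and genotype, with bars for the SE of the limma fit and open points for differences that were not called. Hbegf is at 3.15 in wild type and 1.85 in knockout, and Ereg at 3.82 and 3.08.

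The response of Hbegf was nominally smaller in knockout, by 1.31 ± 0.30 (SE) on the log2 scale, but the test of that difference was not called over all genes (limma adjusted p = 0.0714, unadjusted 7.08e-04). For Ereg the knockout response minus the wild-type response was -0.74 ± 0.57 (adjusted p = 0.689). None of the 8 members was called in this test, where 0.482% of all genes were called lower and 0.309% higher, and Hbegf alone was under 0.05 before adjustment. A block for time brought the adjusted p to 7.33e-04 for Hbegf and 0.0270 for Ereg. Without the 30 min arrays Hbegf was at -1.11 (adjusted p = 0.0363), and with 60 and 480 min included at -1.11 (0.822).

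A second probe set of Hbegf, 1418349_at, gave a difference that was called. Its wild-type signals were 289, 294, 546, 3439, 5140, 4507, 4559 and 3091. Its knockout signals were 670, 794, 1204, 2738, 3250, 2855, 2726 and 1613. The knockout arrays lay above the wild-type ones from 0 to 30 min and below them at each time from 60 min on, without overlap over 0 to 30 min or over 120 to 240 min. In the fit over 30809 probe sets, the rise was 3.70 in wild type and 1.76 in knockout, and the difference of -1.94 ± 0.31 had a limma adjusted p of 0.0199. The brightest probe set, 1418350_at, was at -1.31 in the same fit (adjusted p = 0.0812), and its knockout signals overlapped the wild-type ones at 120 to 240 min. Both probe sets are annotated to the same GenBank record, so they share a target and are not replicates.

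A test of the genotypes at 0, 15 and 30 min alone, added after the values of Hbegf had been seen, gave a higher level of Hbegf in knockout. The differences at these times were 0.99, 0.86 and 1.51 on the log2 scale. The mean of 1.12 ± 0.21 (SE), or 2.17-fold, had a limma adjusted p of 0.00142, and 1418349_at was at 1.25 ± 0.22 (0.00104). The wild-type 30 min array was the dimmest of the 16, with a 2% trimmed mean of the deposited signal of 81.0 against up to 342.5, and an Actb ratio of 3.88. Its part in the result was not tested. At 120, 180 and 240 min Hbegf differed by -0.19 ± 0.21 (adjusted p = 0.571), whereas 1418349_at was lower in knockout, at -0.69 ± 0.22 (0.0419).

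Over all times Hbegf and Ereg were not called between genotypes. Hbegf differed by 0.30 ± 0.21 with 16 arrays (limma adjusted p = 0.314) and by 0.47 with 12 (0.0945), and knockout was higher at 5 of 8 times. Ereg differed by -0.17 ± 0.16 (adjusted p = 0.454), with knockout higher at 3 of 8 times, and its sign turned to 0.19 under the deposited scaling. Under that scaling the median of all genes moved from -0.02 to 0.28, so that every knockout minus wild-type difference was read against a shifted centre.

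Btc showed the largest genotype difference of the 8 measured members and was lower in knockout. Signals in wild type were 174, 190, 201, 454, 193, 262, 528 and 160. Those in knockout were 83.4, 57.1, 78.5, 95.7, 102, 118, 149 and 115. Every knockout array lay under every wild-type array. The difference was -1.30 ± 0.18 (SE) on the log2 scale, a 2.47-fold lower level (limma adjusted p = 2.51e-04 with 16 arrays and 1.12e-05 with 12). The dimmer probe set 1421161_at had an estimate of the same sign (-0.95, adjusted p = 0.00939). Its signals were 17.4 to 64.5 in wild type and 8.93 to 19.3 in knockout. It met the filter of a signal over 16 on at least 3 arrays only through wild type. Its test is thus not read as support. The highest wild-type signals came from the library labelled 60 min and the 240 min array.

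Tgfa was lower in knockout as well. Wild-type Tgfa signals were 393, 400, 325, 366, 370, 418, 505 and 357. Knockout Tgfa signals were 274, 212, 221, 198, 308, 332, 411 and 284. Knockout was lower at 8 of 8 times, although its 180 and 240 min arrays reached into the wild-type range. The difference was -0.50 ± 0.10, or 1.42-fold (limma adjusted p = 0.00331 with 16 arrays and 0.00210 with 12). A second, dim probe set, 1450421_at, showed none (0.07, adjusted p = 0.809), and the mean of the gene's probe sets was not called (-0.22, 0.150), nor was the value under the deposited scaling (-0.17, 0.784).

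Nrg1 had signals of 85.3 to 163 in wild type and 66.3 to 159 in knockout, and the groups overlapped. Its difference was -0.32 ± 0.20 with 16 arrays (limma adjusted p = 0.256). It was called with 12 arrays (-0.36 ± 0.13, adjusted p = 0.0396) and without the 60 min arrays alone (-0.49, 0.0303). Under the deposited scaling the sign turned to 0.02.

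Erbb3 was the one member called higher in knockout over all times. Its wild-type signals were 68.8, 77.8, 71.0, 49.2, 69.2, 46.9, 55.4 and 81.8. Its knockout signals were 142, 118, 109, 137, 106, 140, 137 and 106. Every knockout array was above every wild-type array. The difference was 0.90 ± 0.15 (SE), a 1.87-fold higher level (limma adjusted p = 0.00106 with 16 arrays and 3.94e-04 with 12). Its other probe set, 1452482_at, was not tested, since its signal exceeded 16 on none of the arrays. Beside Erbb3 stands the list of mesothelial and epithelial markers, of which 9 of 11 were called higher and 1 lower. Its epithelial genes had median signals in wild type and knockout of 336 and 1626 for Krt19, 621 and 856 for Cdh1, 60.4 and 128 for Epcam, 48.2 and 52.4 for Krt8, and 103 and 27.2 for Krt18. Their part in the result was not tested.

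Erbb2 was lower in knockout. Its wild-type signals were 262, 261, 289, 215, 355, 314, 310 and 245. Its knockout signals were 199, 247, 175, 151, 204, 243, 186 and 172. Knockout was lower at 8 of 8 times, with some overlap between the groups. The difference was -0.50 ± 0.10 (limma adjusted p = 0.00297 with 16 arrays and 0.00255 with 12), and under the deposited scaling it was -0.17 and not called (0.781).

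For Egfr the answer depended on the probe set. The brightest, 1435888_at, differed by -0.30 ± 0.12 and was not called (limma adjusted p = 0.0830 with 16 arrays and 0.0622 with 12), though it was without the 120 min arrays (-0.40, 0.0114) and without the 480 min arrays (-0.35, 0.0473). Of its 6 tested probe sets 3 were called lower in knockout in the fit over 31886 probe sets. They were 1424932_at (-0.66, adjusted p = 3.83e-04), 1451530_at (-0.67, 0.00416) and 1460420_a_at (-0.41, 0.00995). Counted by gene, which is a different unit, 14.1% of all genes were called lower. The count over all probe sets, given at the end, joins both directions, so no share called lower stands beside these. The signals of 1424932_at were 1224, 1198, 1327, 1269, 1362, 2598, 2945 and 1260 in wild type and 708, 747, 757, 838, 1300, 1788, 1502 and 684 in knockout, lower in knockout at each time. The mean over the probe sets was also called (-0.38, 0.00967), and under the deposited scaling 1435888_at turned to 0.05. The response at 120 to 240 min was called for 1435888_at, 1424932_at (0.96, adjusted p = 0.00523) and 1451530_at (0.82, 0.0480). It was not called for 1460420_a_at (-0.12, 0.702) or for the dim probe sets 1432647_at (0.70, 0.172) and 1454313_at (-0.15, 0.809).

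**Figure D3:**
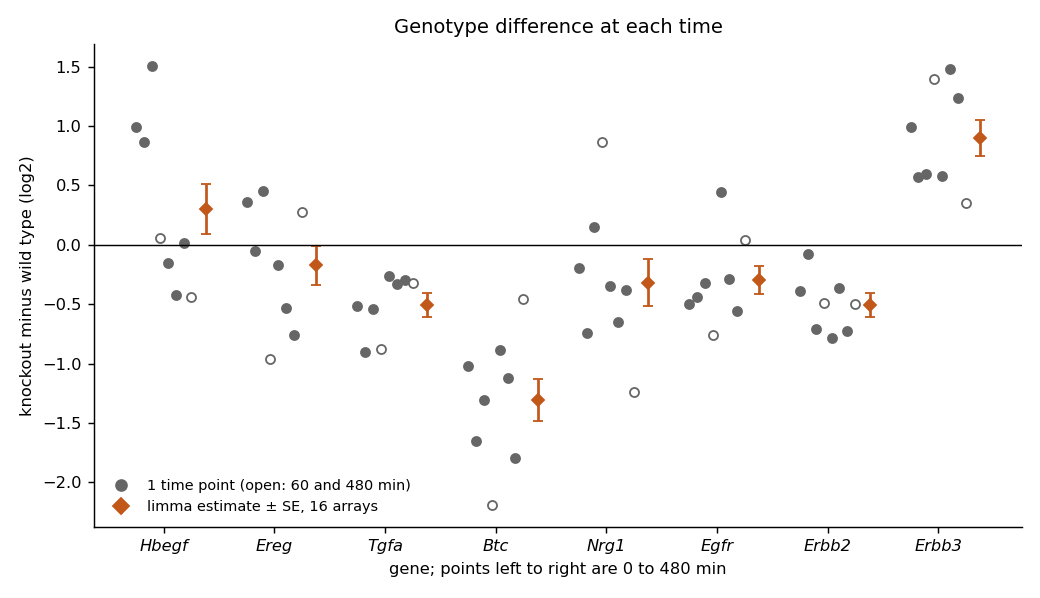
Knockout minus wild type on the log2(signal + 4.856) scale for each gene's brightest probe set, with 1 grey point per time from 0 to 480 min, open for 60 and 480 min, and the limma estimate with its SE in orange. All points lie under 0 for Tgfa, Btc and Erbb2 and above 0 for Erbb3, while those of Hbegf are positive from 0 to 30 min and lie on both sides of 0 later.

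**Figure D4:**
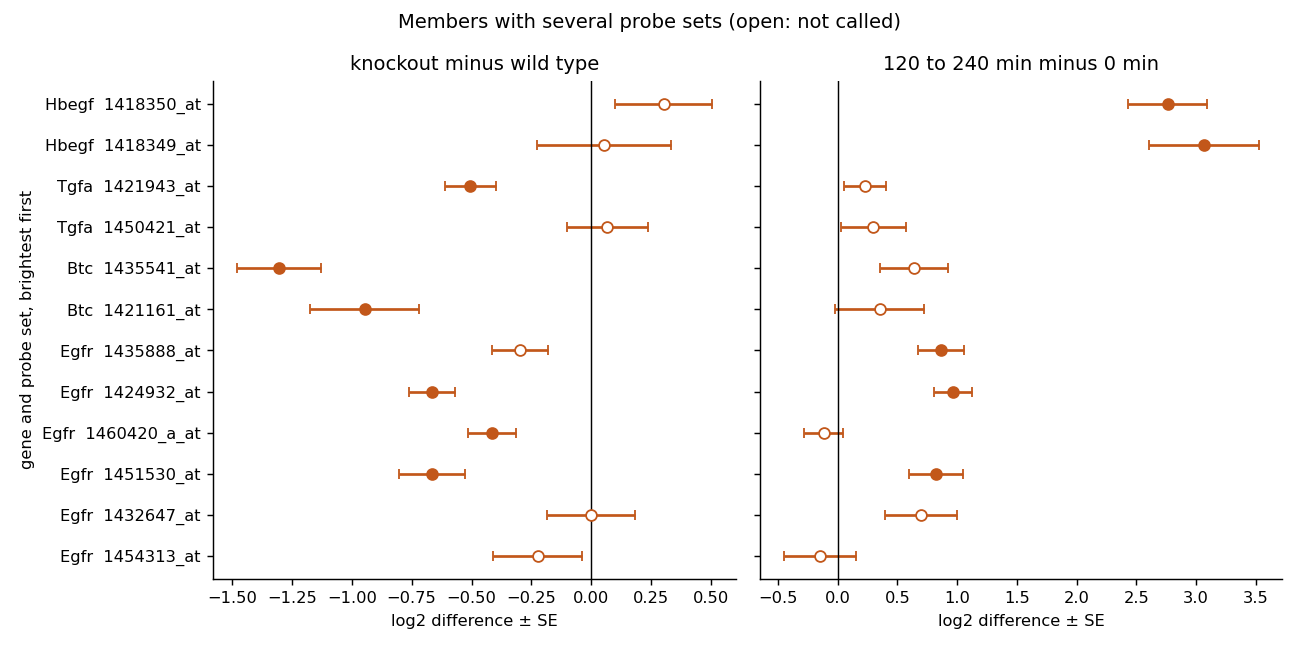
Log2 difference with its SE for each tested probe set of the members that have several, between genotypes on the left and between 120 to 240 min and 0 min on the right, from the 16 arrays, with filled points where called. Both Hbegf probe sets were called in the response, and 3 of 6 Egfr probe sets were called lower in knockout. Counted by gene, which is a different unit, 14.1% of all genes were called lower.

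Over all times 1 member, Erbb3, was called higher in knockout and 3, Btc, Tgfa and Erbb2, lower, where 16.6% of all genes were called higher and 14.1% lower. With the 12 arrays the counts were 1 and 4, against 21.5% and 20.9%. The median member difference was -0.31, against -0.02 over all genes. Of the 8 members 2, Btc and Erbb3, had groups that did not overlap, as did 8.46% of all genes. At 0 to 30 min 2 members were higher, Hbegf and Erbb3, and 2 lower, Btc and Tgfa, against 14.1% and 12.7% of genes. That window was tested after the values of Hbegf had been seen, so the call of Hbegf restates them and is not read against these shares. At 120 to 240 min Erbb3 was higher and Btc and Erbb2 were lower, against 14.7% and 12%. Smooth muscle and mesothelial marker sums also differed between the genotypes, as given above, and their part in these counts was not tested.

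Promoters from RefSeq, on build GRCm38.p6 and written 5' to 3' on the gene's strand, are shown for the members lower in knockout, Btc, Tgfa and Erbb2, and for Egfr, whose probe sets differed. The promoter set used held no entry for Hbegf, Ereg, Nrg1 or Erbb3, so these members could not be shown. Each window spans 250 bases before to 50 after the gene's annotated start, and capitals mark a GC box, GGGCGG on either strand. The windows are chr5:91402945-91403244 on the minus strand for Btc, chr6:86194972-86195271 on the plus strand for Tgfa, chr11:98412234-98412533 on the plus strand for Erbb2 and chr11:16751953-16752252 on the plus strand for Egfr.
Btc: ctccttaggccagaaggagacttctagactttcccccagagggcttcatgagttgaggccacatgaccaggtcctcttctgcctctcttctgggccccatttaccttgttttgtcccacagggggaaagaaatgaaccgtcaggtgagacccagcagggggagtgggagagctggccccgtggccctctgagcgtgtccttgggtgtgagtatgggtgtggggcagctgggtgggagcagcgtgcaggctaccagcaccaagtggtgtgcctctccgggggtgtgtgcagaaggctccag
Tgfa: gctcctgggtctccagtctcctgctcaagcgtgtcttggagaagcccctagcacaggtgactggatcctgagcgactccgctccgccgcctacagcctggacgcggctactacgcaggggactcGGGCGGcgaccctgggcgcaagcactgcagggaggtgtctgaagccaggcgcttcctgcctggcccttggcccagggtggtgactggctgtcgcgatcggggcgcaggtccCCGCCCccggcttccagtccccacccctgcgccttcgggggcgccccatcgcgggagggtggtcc
Erbb2: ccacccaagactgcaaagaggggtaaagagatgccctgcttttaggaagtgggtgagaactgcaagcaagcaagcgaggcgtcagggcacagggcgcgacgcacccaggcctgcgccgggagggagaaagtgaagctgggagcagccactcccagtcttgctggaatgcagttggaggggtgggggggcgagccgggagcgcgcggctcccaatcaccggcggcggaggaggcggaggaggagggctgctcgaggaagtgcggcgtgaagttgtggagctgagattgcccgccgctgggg
Egfr: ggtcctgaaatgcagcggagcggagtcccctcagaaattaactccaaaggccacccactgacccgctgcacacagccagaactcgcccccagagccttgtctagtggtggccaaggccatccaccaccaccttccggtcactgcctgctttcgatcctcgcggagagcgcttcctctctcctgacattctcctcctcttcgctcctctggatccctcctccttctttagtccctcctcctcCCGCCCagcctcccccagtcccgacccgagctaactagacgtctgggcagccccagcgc

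The GC content of these windows was 60.3% for Btc, 70.7% for Tgfa, 66% for Erbb2 and 62.3% for Egfr. GC boxes stood at bases 125 and 236 of the Tgfa window and at base 242 of the Egfr window, counted from the window's 5' end, and 35.7% of 32851 promoter windows held at least 1. On both strands the 4 windows held no AP-1 site (TGANTCA, in 7.81% of all windows), cAMP response element (TGACGTCA, 1.79%), E box (CACGTG, 7.15%), site of the class bound by Hey proteins (CACGCG, 9.27%) or CArG box (1.63%). These matches describe the letters of short windows and nothing else.

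The rest of the EGF receptor pathway was followed in a list of 32 genes, of which 30 were tested. Erbb4, a receptor of Ereg, Btc, Nrg1 and other EGF-family ligands, was not tested: its probe set had signals of 0.631 to 17.6 and exceeded 16 on 1 array. At 120 to 240 min 3 of the 30 rose and 1 fell with 16 arrays, and 6 rose and 5 fell with 12, where the shares of all genes were 5.15% and 5.72%, and 14.1% and 20.9%. The list had a median of 0.12 against -0.08 over all genes. The largest rise was that of Errfi1, an inhibitor that binds and silences the activated EGF receptor. Its signals were 588, 613, 2548, 7281, 8968, 7818, 8375 and 9041 in wild type and 859, 995, 3564, 9059, 7028, 5333, 7130 and 4650 in knockout. Both genotypes were already above their 0 min array at 30 min, and the rise at 120 to 240 min was 3.36 ± 0.28 (limma adjusted p = 1.40e-04).

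Socs5, a suppressor of cytokine signalling that promotes degradation of the EGF receptor, rose by 1.04 (limma adjusted p = 0.00573). Epgn, which encodes the ligand epigen, was called higher (0.0281), but both of its 0 min signals, 1.76 and 7.67, lay under the filter of 16, so no size is given. Sos1, the exchange factor that activates Ras, fell by 0.59 (0.0294). With the 12 arrays the metalloprotease gene Adam19 also rose, by 1.75 (6.26e-06), and the docking protein gene Gab1 fell by 2.0 (2.26e-04). Gab1 ran from 2113 to 2254 at 0 to 30 min and 293 to 482 at 120 to 240 min in wild type, and from 1399 to 1838 and 407 to 672 in knockout, without overlap between the stages.

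By stage, 10 of the 30 rose and 5 fell in wild type, and 4 rose and 2 fell in knockout. Over all genes these shares were 15.7% and 22.7% in wild type and 9% and 11% in knockout, as given above. In wild type the smallest p-values were those of Gab1 (-2.57, limma adjusted p = 4.23e-07), Socs5 (1.11, 8.77e-06), Rhbdf1 (0.73, 2.56e-05) and Adam10 (-0.69, 4.16e-05). Rhbdf1 encodes a rhomboid-like protein that guides Adam17 to the cell surface, and Adam10 a sheddase of Btc. In knockout they were Adam19 (1.74, 4.84e-05), Gab1 (-1.60, 6.90e-05), Socs5 (0.94, 9.62e-05) and Plcg1 (-0.76, 0.00731), the last a phospholipase recruited by activated receptors. Adam17, the sheddase of Hbegf, Ereg and Tgfa, differed by -0.37 ± 0.13 at 120 to 240 min, not called with 16 arrays (0.0999) and called with 12 (0.0363).

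Between genotypes 4 of the 30 were higher and 5 lower in knockout with 16 arrays, and 5 and 6 with 12. These counts are near the shares of all genes called, 16.6% and 14.1% with 16 arrays and 21.5% and 20.9% with 12. Cd9 encodes a tetraspanin that binds the Hbegf precursor. Its signals were 3887, 3515, 3569, 2887, 4200, 3272, 3456 and 3483 in wild type and 2669, 2357, 2478, 2729, 2407, 2074, 2275 and 2040 in knockout, with no overlap. Its difference was -0.57 ± 0.08 (limma adjusted p = 2.30e-04). Lower too were Lrig3 (-0.76, 0.00520), a relative of the ErbB inhibitor Lrig1, and Socs4 (-0.30, 0.00409), also a suppressor of EGF receptor signalling. The metalloprotease genes Adam9 (0.24, 0.00308) and Adam17 (0.26, 0.0353) were higher. Adam19 differed by -0.84, not called with 16 arrays (0.0657) and called with 12 (3.88e-05). Errfi1 differed by -0.01 ± 0.17 (0.981).

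**Figure D5:**
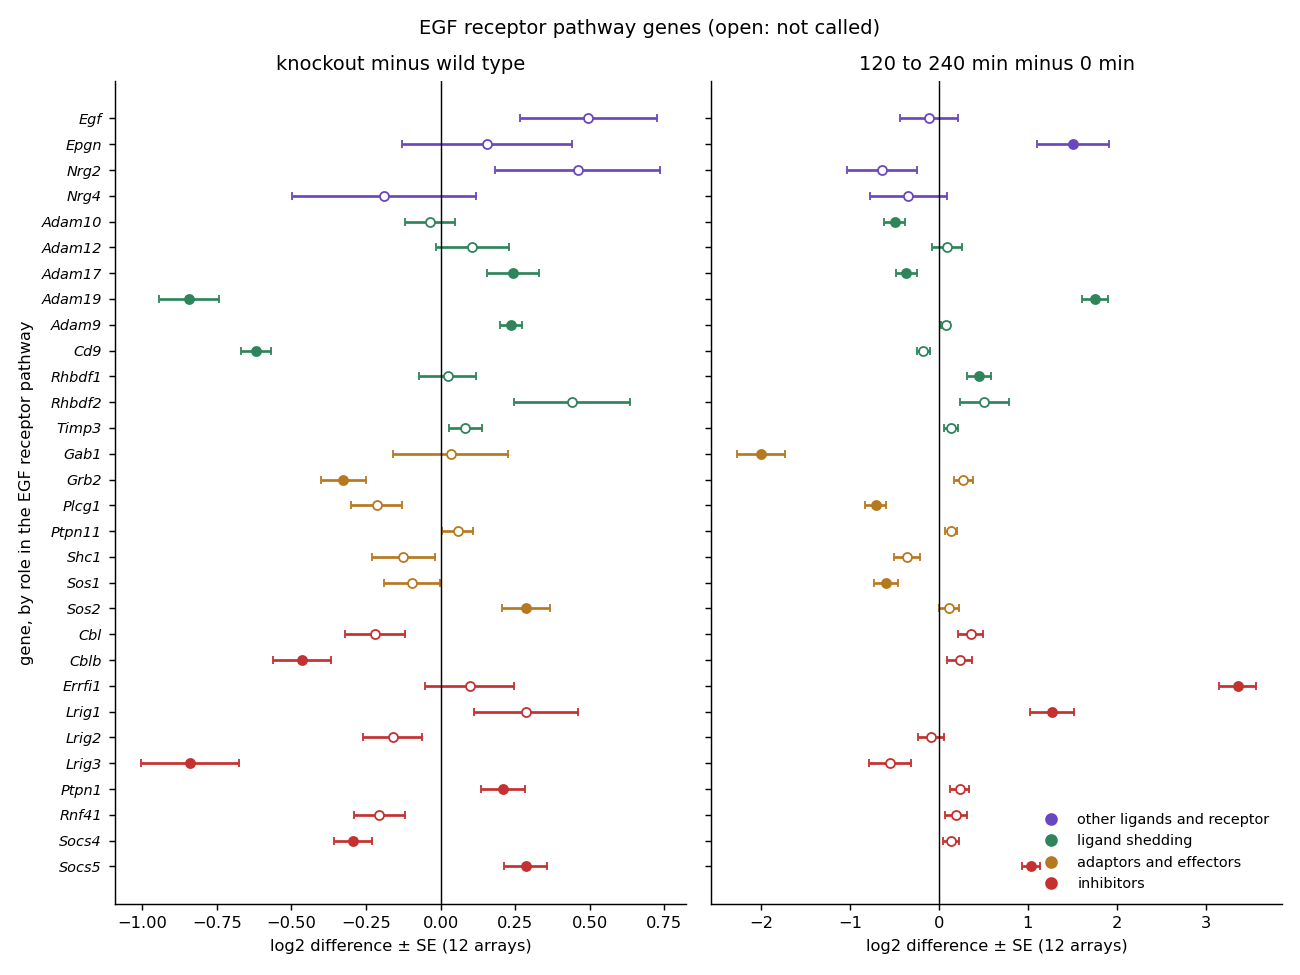
Log2 difference with its SE for the 30 tested pathway genes, coloured by role, between genotypes on the left and between 120 to 240 min and 0 min on the right, from the 12 arrays, with filled points where called. Errfi1 at 3.36 and Gab1 at -2.0 mark the ends of the response.

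The genes whose pattern over the 16 arrays was most like that of Hbegf, by Pearson correlation of log2 values among 14298 other genes, were Fosl1, Plaur, Pvr, Slc20a1 and Vps37b. Their r was 0.98, 0.98, 0.97, 0.97 and 0.96 with 16 arrays and 0.98, 0.99, 0.97, 0.97 and 0.96 with 12. Fosl1 encodes an AP-1 transcription factor, and its signals were 22.0, 20.9, 89.1, 2388, 3569, 3036, 2825 and 1542 in wild type and 65.7, 53.6, 187, 1312, 2333, 2037, 2311 and 1146 in knockout. Like Hbegf it was higher in knockout at each time from 0 to 30 min. Plaur, the urokinase receptor gene, had signals of 140, 178 and 307 at these times in wild type and 397, 367 and 486 in knockout. Ereg ranked 7th (0.95 and 0.96), and Egfr had an r of 0.39 with 16 arrays and 0.62 with 12. These points share arrays and the time course, and the correlations are given as a description. Fosl1 and Plaur were picked by correlation over these same arrays, so their likeness to Hbegf at 0 to 30 min is not independent support.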

How the data were processed

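The deposited table holds linear signal intensities of each probe set, which the authors obtained from MAS5 according to the labels (per the submitters' processing notes), with no version given in the sources used here. Genotype and time came from the sample titles. Because array brightness differed, the 16 arrays were quantile normalized. Signals were transformed as log2(signal + 4.856), with the 20th percentile of all signals as offset, so the changes of dim genes are understated. Probe sets with a signal over 16, the 40th percentile, on at least 3 arrays were tested. Each gene was represented by its brightest such probe set, leaving 14299 genes, or 13913 with 12 arrays.

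Of the probe sets, 34945 had 1 gene symbol, 932 several and 9160 none, beside 64 controls, and only the first were named. Of these, 34741 matched a RefSeq gene of GRCm38.p6. The 19 member probe sets gave 16 that were tested.

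Models were fitted in limma 3.58.1 (R 4.3.3) with trended empirical Bayes variances, and p-values were adjusted over all genes by Benjamini-Hochberg, with a threshold of 0.05. Genotype, the response at 120 to 240 min and the F test used time as a factor plus genotype, with 7 residual degrees of freedom on 16 arrays and 5 on 12. The responses by genotype and their difference used genotype by stage on 12 arrays, with 8 degrees of freedom. The number of arrays limits the precision, and errors are standard errors of the fit. Fits were checked on simulated data.

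The members, the pathway and marker lists and the tests were chosen with earlier results of these data known. Named are all members, Hey2, up to 4 called pathway genes with the smallest p per comparison, Errfi1, Adam17 and Erbb4, and the 5 genes most like Hbegf. Marker genes and Lrig1 were named after their values were seen. The alternatives changed the scaling, the offset, the filter, the choice among probe sets, the variance model, the times included, the time block or the form of the interaction.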

Additional observations from a re-analysis of the deposited data

Results flagged for a closer look

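The response of Hbegf on the probe set 1418349_at differed between genotypes in a test of the difference itself. From 0 to 30 min to 120 to 240 min it rose by 3.70 in wild type and 1.76 in knockout on the log2(signal + 4.856) scale, a difference of -1.94 ± 0.31 (SE; 3 arrays per genotype and stage, limma adjusted p = 0.0199 over 30809 probe sets). In knockout the signal was higher by 1.25 at the early times and lower, at -0.69, at the late times. These 2 values are the parts of the same difference, and their tests were added after the values of Hbegf had been seen. The gene's brightest probe set, 1418350_at, had a difference of -1.31 that was not called. No group holds more than 1 array, so single arrays could not be checked against replicates.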

How the results depend on the processing

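In 25 alternatives, 618 member values were compared with 33 results: 557 kept direction and side of the threshold, 42 lost the call, 13 gained one and 6 changed sign. The genotype calls of Btc (-1.42 to -0.99) and Erbb3 (0.72 to 1.22) held in all 22 alternatives run for them, and the responses at 120 to 240 min of Hbegf (2.69 to 2.92) and Ereg (3.93 to 4.08) in all 18. The changes of sign came with the deposited scaling (genotype: Ereg 0.19, Nrg1 0.018, Egfr 0.045; early response: Hbegf -0.17), with early times alone (Ereg 0.25) and with late times alone (Hbegf -0.19), both added after the data had been seen. Under the deposited scaling the median gene stood at 0.28 instead of -0.02 for genotype and at -0.53 instead of -0.01 early. The part of these shifts in the 4 changes of sign under that scaling was not tested, nor was the cause of the others.

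Counts of genes called were 4393 for genotype, 2 early, 1554 at 120 to 240 min, 427 for time, 5347 for wild type, 2784 for knockout and 110 for their difference. The deposited scaling gave 2155, 12, 284, 700, 231 and 1, time aside. A row for every probe set gave 8164 for genotype, 2506 at 120 to 240 min, 776 for time, 9344 for wild type and 4268 for knockout. Without the 60 and 480 min arrays the count was 28 early, 4873 at 120 to 240 min and 4974 for time. Adding them to the stages gave 254, 75 and 0 for wild type, knockout and difference. No intensity trend gave 0 early, 233 for time and 13 for the difference, which was 43 with the mean of probe sets, 1 with a spline and 589 with a time block. Leaving out each time in turn gave 3587 to 4922 for genotype, 0 to 2 early, 665 to 3058 at 120 to 240 min, 149 to 1898 for time, 3956 to 5942 for wild type, 1395 to 3604 for knockout and 1 to 288 for the difference.

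With 1 array per genotype and time, the spread is that between time points, and isolate and genotype cannot be told apart. Dim probe sets, such as 1421161_at of Btc, 1450421_at of Tgfa and the pathway gene Epgn, carry compressed log2 differences.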
